A study of Sorghum bicolor with 9 samples.

Results

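The transcripts described here are the long non-coding RNAs (lncRNAs) of sorghum leaves whose deposited name is that of a gene followed by OT and a number. They were chosen by that name alone, and 1025 of the 11928 lncRNA transcripts of the study carried it. They belonged to 603 gene loci, each of which was also listed as a gene in the table of protein-coding genes. The sources used here do not define the OT class. The leaves came from Sorghum bicolor, a C4 cereal of dry regions, and were sampled at 3 water levels with 3 libraries each: normal water supply, called the control here, then mild and severe drought. Total RNA was sequenced in strand-specific libraries, and counts and FPKM (fragments per length of transcript and per library size) were deposited for genes and for lncRNA transcripts. The labels give neither the cultivar and age of the plants nor the way water was withheld. Nor do they say if libraries of 1 group stem from separate plants, so p-values measure only how far these samples spread, which may be technical.

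LncRNAs are long transcripts with no recognised coding sequence. In plants, some act in the response to cold or drought, in flowering and in the control of neighbouring genes, while for most no role is known. A gene can also give rise to several transcripts through other start sites, splice sites or ends, and a shift between them changes the RNA made from a locus without a change in its total. That is the reason for following each OT transcript both as a level and as a share of the OT counts of its locus.

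OT transcripts spanned long stretches of the genome, within the genes whose names they carry. A span runs from start to end with any introns and is not the length of the RNA. Each of the 1025 lay inside the span of its gene, and they covered a median of 93.4% of it. The medians were 20.4% for the AS class and 5.68% for the IT class of lncRNA names. In 560 OT transcripts (54.6%) the cover was at least 90%, and 206 had the same start and end as the gene. Their median span on the genome was 3652 bases, with a range from 244 to 318965 bases. The medians of the other main classes were 582 bases (AS), 380 bases (IT) and 338 bases (LINC). Exons and strands were not available for these models, so which exons set an OT transcript apart from the other transcripts of its gene was not analysed here. Positions are those of the deposited tables, and the sources used here name no genome build. On chromosomes 1 to 10 lay 1020 of the transcripts, and 5 lay on unplaced supercontigs. Genes with an OT transcript made up 1.34% of genes on chromosome 3 and 2.4% on chromosome 9, the lowest and the highest share.

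A single OT transcript was present at 407 loci and 2 or more at 196. At 28 loci there were 5 or more, and SORBI_3006G031800, which has no protein name, had the most with 14. Only 154 of the 603 host genes (25.5%) had a protein name in the deposited descriptions, against 61.6% of the 33763 other genes. A Pfam domain was listed for 98 host genes (16.3%), against 61.7% of other genes. Neither a protein name nor a domain was listed for 428 host genes (71%).

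Leaf genes were abundant. Genes described as chlorophyll a-b binding proteins summed to 5784 to 30581 FPKM per library, while the seed storage proteins kafirin and zein reached at most 0.477 and 0.596 FPKM. Genes named for the Casparian strip, a root structure, summed to 4.35 to 15.02 FPKM. Pollen markers were mixed: 5 genes described as pollen allergens summed to at most 0.307 FPKM, but 5 described as pollen-specific to 4.42 to 49.4 FPKM. The 8 genes described as knotted-1 homeobox proteins, a family of which some members act in the shoot meristem, were not near 0, at 104 to 162 FPKM. The descriptions do not show which of the 8 are such members. The part of these tissues in the results was not tested. The gene table held 27854146 to 41228478 counts per library and lncRNA transcripts had 1213470 to 2902522. Of the lncRNA counts, 118246 to 259403 fell on OT transcripts, which is 6.07% to 17.4%. The number of OT transcripts with at least 1 count lay between 789 (severe drought 1) and 927 (control 3), and 569 were detected in all 9 libraries. Severe drought 1 stood apart. There, 37 OT transcripts were at 0 with 1 CPM or more in each of the remaining 8 libraries. For the other libraries this number was 1 to 6. CPM stands for the count scaled to a fixed effective library size, which was set by the genes of the same library.

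**Figure D1:**
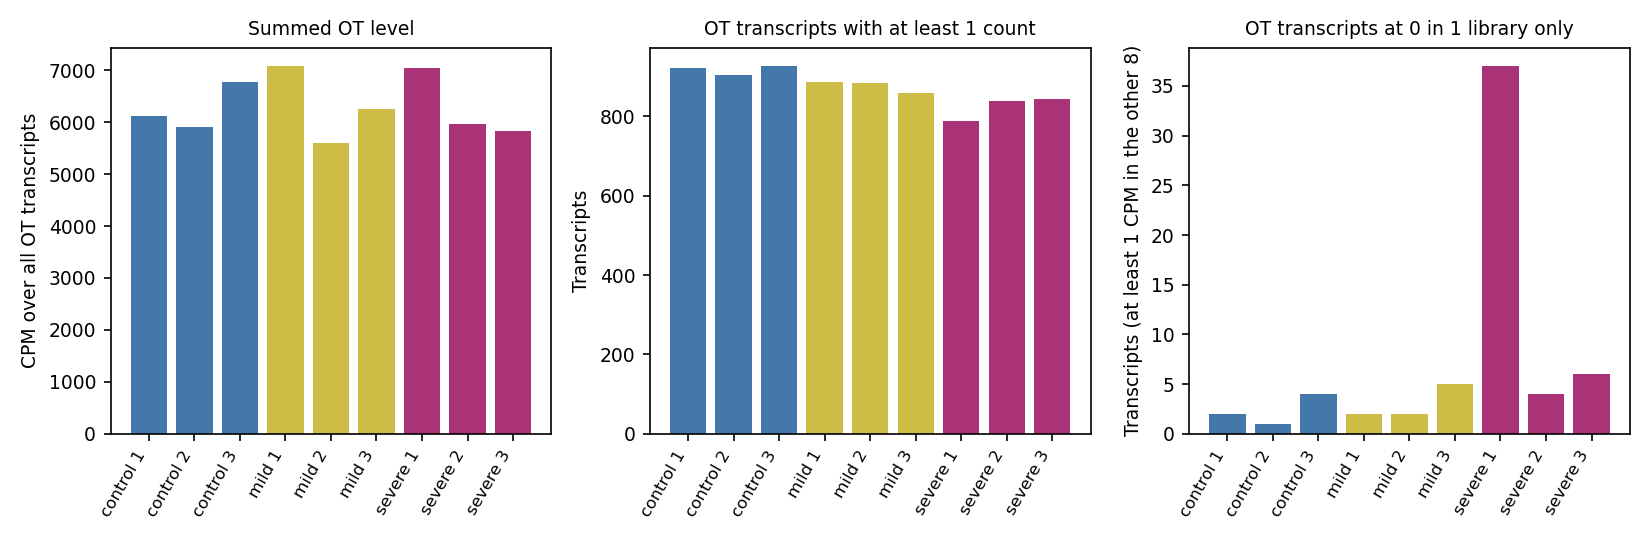
Bars give, for each of the 9 libraries, the summed level of all OT transcripts (CPM, left), the number of OT transcripts with at least 1 count (middle), and the number at 0 in that library alone with at least 1 CPM in the other 8 (right). The sums lie between 5601 and 7082 CPM with no order by water level, and severe drought 1 stands apart on the right with 37 transcripts.

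OT transcripts had higher levels per length than the other classes. The median FPKM was 1.29 for OT transcripts, 0.518 for AS, 0.525 for IT and 0.246 for LINC. Host genes had a median of 6 FPKM and other genes 0.93 FPKM. By counts, OT transcripts had a median of 2.41 CPM over the 9 libraries. At least 1 CPM was reached by 779, at least 10 CPM by 129 and at least 100 CPM by 5, and the 8 with the most counts held 17.3% of the OT total. The median OT share of a gene count was 40.8% (quartiles 16.7% and 75.1%). OT transcripts held more than 50% at 254 loci, more than 90% at 87 and less than 10% at 90.

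The 8 OT transcripts with the most counts came from 6 genes, of which 5 have no protein name. The exception was SORBI_3008G030801-OT1 (chromosome 8, 2751984 to 2760056), of a gene described as non-specific lipid-transfer protein 2, a small secreted protein of a family that binds lipids and is linked to cuticle formation. This transcript held nearly the whole count of its gene. Its level was 24.4, 47.1 and 48.8 CPM in the controls, 63.1, 227 and 156 CPM in mild drought and 127, 266 and 254 CPM in severe drought. Each drought library lay above each control library. The log2 difference was 1.89 ± 0.55 in mild drought and 2.43 ± 0.56 in severe drought against control, and neither passed over all lncRNA transcripts (edgeR adjusted p = 1.00 and 0.626). In severe drought DESeq2 gave an adjusted p of 0.0205, with a range of 0.0205 to 0.702 over the alternatives with all libraries.

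SORBI_3010G094000-OT2 (chromosome 10, 8343694 to 8359320) moved the other way in its values. It had 356, 185 and 321 CPM in the controls, 158, 86.8 and 146 CPM in mild drought and 74.1, 125 and 121 CPM in severe drought. The control libraries lay above all others, and this transcript held 93.2% to 98.1% of the OT counts of its locus in every library. The log2 difference was -1.14 ± 0.41 in mild and -1.43 ± 0.41 in severe drought, and neither passed (edgeR adjusted p = 1.00 and 0.925). SORBI_3004G109750-OT1 (chromosome 4) had 149, 113 and 146 CPM in the controls, 104, 61.8 and 61.5 CPM in mild drought and 13.7, 84.8 and 78.7 CPM in severe drought, with the lowest value in severe drought 1. SORBI_3001G181500-OT1 (chromosome 1) was the steadiest of the 8, with 65.3 to 82.1 CPM in the controls, 76.1 to 89.3 CPM in mild drought and 81.7 to 103 CPM in severe drought. SORBI_3007G028400-OT1 (chromosome 7, 2557322 to 2557722) had counts in some libraries of every water level and none in others. It had 133, 0 and 222 CPM in the controls, 129, 0 and 0 CPM in mild drought and 256, 0 and 92.4 CPM in severe drought. Its gene was counted in every library, at 94.7 to 685 CPM. The other 3 of the 8 belong to SORBI_3009G183000 and are described with its shares.

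Scaled to the genes of the same library, the summed level of OT transcripts did not differ detectably between water levels. Their summed level was 6311 ± 742 CPM in mild drought and 6266 ± 454 CPM in the controls (SD, n = 3 each; two-sided exact permutation test, p = 0.9). In severe drought it was 6282 ± 670 CPM (exact p = 1 against the controls and 0.9 against mild drought). With 3 libraries against 3 this test cannot give a p below 0.1. As a share of all lncRNA counts, OT transcripts held 8.68% ± 2.27 in severe drought and 14.0% ± 3.03 in mild drought (SD, n = 3 each), a fold of 0.621. Each severe drought library (6.07% to 10.2%) lay below each mild drought library (11.7% to 17.4%), and the exact p of 0.1 is the smallest the test can give. The controls lay between with 11.1% ± 2.01 and overlapped both (exact p = 0.3 each). The lower share in severe drought stood beside summed OT levels of 6282 CPM there and 6311 CPM in mild drought. It thus does not show less OT RNA, and the part of the other lncRNA counts was not tested. For a single transcript in bulk leaves, fewer cells that make it and less of it per cell cannot be told apart.

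The first comparison, mild drought against control, asked which OT transcripts respond to a moderate shortage. Of the 4903 lncRNA transcripts with enough counts for a test, 908 were OT transcripts, and 117 OT transcripts had too few. No OT transcript passed in edgeR at an adjusted p under 0.05, as was so for all lncRNA transcripts (0% called). DESeq2 called 7 OT transcripts (0.789%), beside 0.247% of all lncRNA transcripts it gave an adjusted p. At an unadjusted p under 0.05 edgeR had 43 OT transcripts (4.74%), beside 3.2% of all lncRNA transcripts tested. Groups did not overlap in 53 OT transcripts that were higher (5.84%, beside 6.73% of all lncRNA transcripts) and 61 that were lower (6.72%, beside 4.51%). The median log2 difference of the 908 was 0.02, and 0.15 over the other classes.

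The smallest p belonged to SORBI_3K044411-OT4 (supercontig super_2942, 692 to 2564), of a gene with no protein name. It had 18.2, 11.9 and 23.5 CPM in mild drought and 0, 0 and 0.0522 CPM in the controls. The mild drought libraries held 1681 counts and the controls 2, a ratio per effective library size of 888 (95% exact binomial interval 245 to 7336, for counting error only). This transcript entered the test through mild drought alone, the group where it was high. It did not pass (edgeR adjusted p = 0.0891, range 1.67e-11 to 0.455 over the alternatives with all libraries, the lowest in DESeq2). SORBI_3003G256600-OT1 (chromosome 3, 59458035 to 59468236) had 1 count in mild drought and 21.2, 19.6 and 23.5 CPM in the controls. It also had no count in severe drought 2 and 3, yet 31 CPM in severe drought 1, so the libraries of severe drought were split. Its gene stayed at 20.4 to 43.5 CPM throughout. SORBI_3001G538100-OT1 (chromosome 1, 80077585 to 80078834) lies in the gene of E3 ubiquitin-protein ligase RFWD3, which in mammals marks proteins at damaged DNA for removal. It had 0.315, 0.393 and 0.4 CPM in mild drought and 1.99, 2.26 and 0.967 CPM in the controls. Its log2 difference of -2.22 ± 0.65 did not pass (edgeR adjusted p = 1.00). In severe drought it had 1.7, 2.28 and 0.69 CPM, overlapping the controls.

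Severe drought was then compared with the control, to ask about the strongest shortage. A single OT transcript fell and none rose in edgeR, beside 0.0204% and 0% of all 4903 transcripts. The one that fell was SORBI_3010G232200-OT3. DESeq2 called 13 OT transcripts (1.47%), beside 0.866% of all lncRNA transcripts. At an unadjusted p under 0.05 there were 55 OT transcripts (6.06%), beside 4.75% of all lncRNA transcripts. Groups did not overlap in 62 OT transcripts that were higher (6.83%, beside 7.12%) and 80 that were lower (8.81%, beside 5.69%). The median log2 difference was 0.01 for OT transcripts and 0.15 for the other classes.

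SORBI_3010G232200-OT3 (chromosome 10, 57531766 to 57535282) disappeared in severe drought. It had 9.59, 6.49 and 8.54 CPM in the controls, 14.4, 7.88 and 13.1 CPM in mild drought, and no count in any severe drought library. Taking 3 counts over the severe drought group as a floor, it was at least 198-fold lower in severe drought than in the controls (edgeR adjusted p = 0.0118) and at least 267-fold lower than in mild drought (edgeR adjusted p = 0.00903). Its neighbour SORBI_3010G232200-OT2 (57531727 to 57535299) showed the reverse. It had 4.42, 16.4 and 14.1 CPM in severe drought and 0.132, 0.169 and 0.104 CPM in the controls, a log2 difference of 6.39 ± 0.82 (edgeR adjusted p = 0.0561, range 1.81e-11 to 0.355 over the alternatives with all libraries). Against mild drought, where it had 0.158, 0.0462 and 0.2 CPM, the difference was 6.43 ± 0.82 and passed (edgeR adjusted p = 0.028). OT2 entered both tests through severe drought alone, the group where it was high. The third OT transcript of the locus, OT1 (57531706 to 57535408, the span of the whole gene), had 4.64 to 7.67 CPM in the controls, 3.08 to 6.84 CPM in mild drought and 2.75 to 7.08 CPM in severe drought, so its groups overlapped. The count of the whole gene was 24.1, 23.9 and 25.6 CPM in the controls, 32.3, 26.8 and 25.7 CPM in mild drought and 13.3, 33.4 and 28 CPM in severe drought. The files give this gene neither a protein name nor a domain.

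The fall of OT3 against the controls did not pass when any single control was left out (adjusted p = 0.0827, 0.0616 and 0.0799 without control 1, 2 and 3). Against mild drought it did not pass without mild drought 1 (0.0645) or mild drought 3 (0.0623), while its counts in severe drought were 0 in each library whichever was left out.

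SORBI_3002G094800-OT3 (chromosome 2, 9826750 to 9828843) was also without a count in the 3 severe drought libraries. It had 0.98, 1.28 and 1.91 CPM in the controls and 2.93, 2.36 and 2.76 CPM in mild drought, and was at least 33.2-fold lower in severe drought than in the controls and at least 62.6-fold lower than in mild drought. The fall against the controls did not pass and that against mild drought did (edgeR adjusted p = 0.0628 and 0.028). It held 6.01% to 15.8% of the OT counts of its locus in the controls and in mild drought, and its gene stayed between 21.8 and 38.1 CPM in all 9 libraries. SORBI_3006G044301-OT2 (chromosome 6, 30806276 to 30816152) had 0.676 to 4.07 CPM in the controls, 3.76 to 5.2 CPM in mild drought and no count in severe drought (edgeR adjusted p = 0.156 against the controls and 0.0725 against mild drought). Its whole gene had no count in severe drought 1, but 24.0 and 22.2 CPM in severe drought 2 and 3.

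Values that were higher in severe drought without passing included SORBI_3009G170000-OT1 (chromosome 9), with 17.4, 6.15 and 8.13 CPM in severe drought and 2.01, 3.21 and 3.58 CPM in the controls (log2 1.85 ± 0.51, edgeR adjusted p = 0.813). SORBI_3004G136500-OT4 (chromosome 4) had 17.0, 12.9 and 10.8 CPM in severe drought and 5.67, 5 and 6.63 CPM in the controls (log2 1.23 ± 0.40, edgeR adjusted p = 0.967). In both, the counts of the whole gene, which include the OT counts, were higher in severe drought. They were 20.2 to 28.7 CPM for SORBI_3009G170000 (7.13 to 15.1 CPM in the controls). For SORBI_3004G136500 they were 25.7 to 32.8 CPM (17.0 to 17.9 CPM in the controls). These counts do not show whether the rest of the gene was higher too. SORBI_3005G208275-OT5 (chromosome 5) had no count in severe drought and 1.83, 7.64 and 2.87 CPM in the controls, at least 91.0-fold lower, with an edgeR adjusted p of 0.626. SORBI_3002G162500-OT1 (chromosome 2) had 0.17, 0.14 and 0.0493 CPM in severe drought and 1.3, 11.1 and 0.522 CPM in the controls (log2 -5.09 ± 1.29, edgeR adjusted p = 0.626).

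The step between the drought levels was compared as severe against mild drought. In edgeR 1 OT transcript rose and 3 fell, beside 0.0204% and 0.0612% of all 4903 transcripts, since no transcript of another class was called. DESeq2 called 14 OT transcripts (1.58%), beside 0.589% of all lncRNA transcripts. With no filter on low counts edgeR called 15 OT transcripts in mild drought against control, 21 in severe drought against control and 18 in severe against mild drought (1.46%, 2.05% and 1.76%), beside 0.168%, 0.302% and 0.243% of all lncRNA transcripts. These shares come from sets that differ in counts. The filter was passed by 908 of the 1025 OT transcripts, but by 4903 of all 11928. With the filter, at an unadjusted p under 0.05 there were 49 OT transcripts (5.4%), beside 3.63% of all lncRNA transcripts. Groups did not overlap in 31 OT transcripts that were higher (3.41%, beside 4.28%) and 57 that were lower (6.28%, beside 5%). The median log2 difference was -0.03 for OT transcripts.

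**Figure D2:**
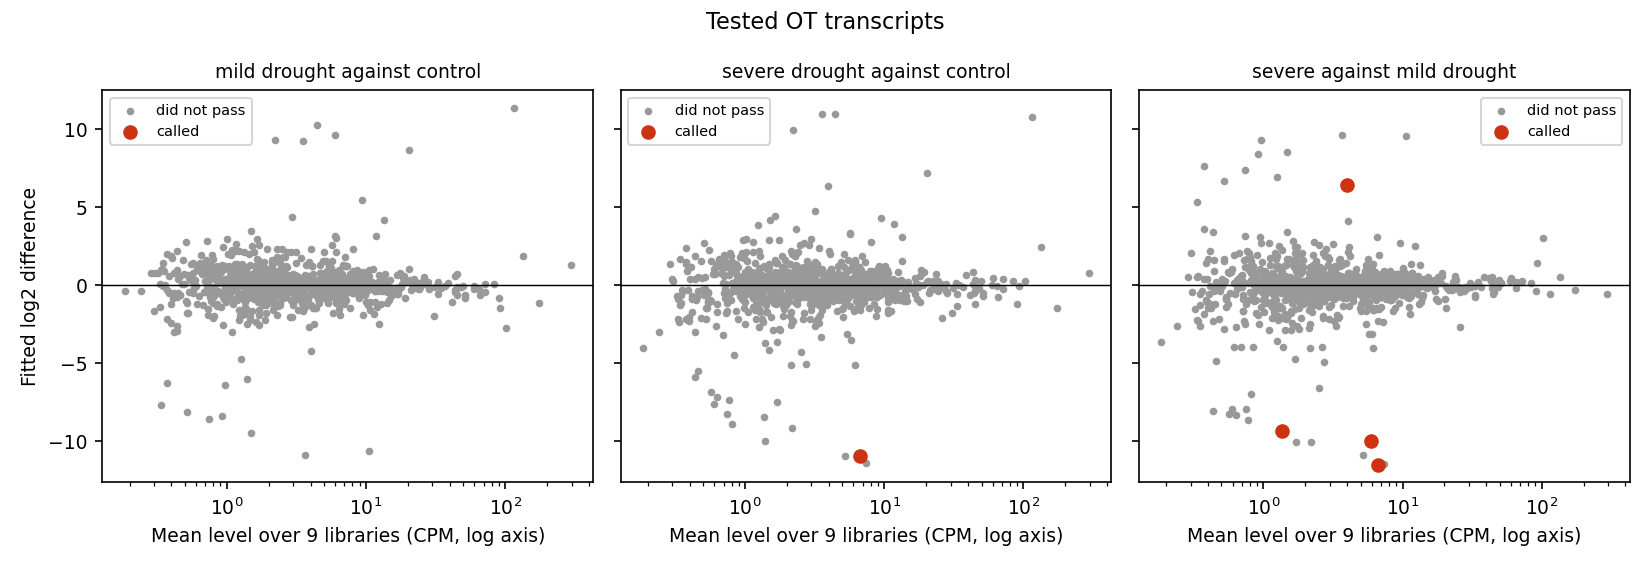
Each point is 1 of the 908 tested OT transcripts, by its mean level over the 9 libraries (CPM, log axis) and its fitted log2 difference from edgeR, for the 3 comparisons. Red points passed at an adjusted p under 0.05: none in mild drought against control, 1 in severe drought against control and 4 in severe against mild drought. Values far from 0 at low levels belong mostly to transcripts with almost no counts in a group, whose fitted difference depends on the constant added to counts.

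The transcript that rose was SORBI_3010G232200-OT2, and those that fell were SORBI_3010G232200-OT3, SORBI_3002G094800-OT3 and SORBI_3K044411-OT4. SORBI_3010G232200-OT2 passed the filter on low counts through severe drought alone, and SORBI_3K044411-OT4 through mild drought alone. Their entry into the test thus depended on the group where they were high. SORBI_3K044411-OT4 was seen almost solely in mild drought, with 2 counts in the controls. It had 1 count in severe drought against 1681 in mild drought, a ratio of 0.000836 (95% exact binomial interval 2.12e-05 to 0.00466; edgeR adjusted p = 0.028). Its gene was counted in all groups, at 32.6, 19.3 and 29.4 CPM in severe drought and 76.7, 31.7 and 74.5 CPM in mild drought. Without each library of the comparison in turn, this call was lost every time (adjusted p = 0.081 to 0.178), and that of SORBI_3002G094800-OT3 every time except without severe drought 1 (0.036 to 0.178). The call of SORBI_3010G232200-OT2 was likewise held only without severe drought 1 (0.0126 to 0.29).

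**Figure D3:**
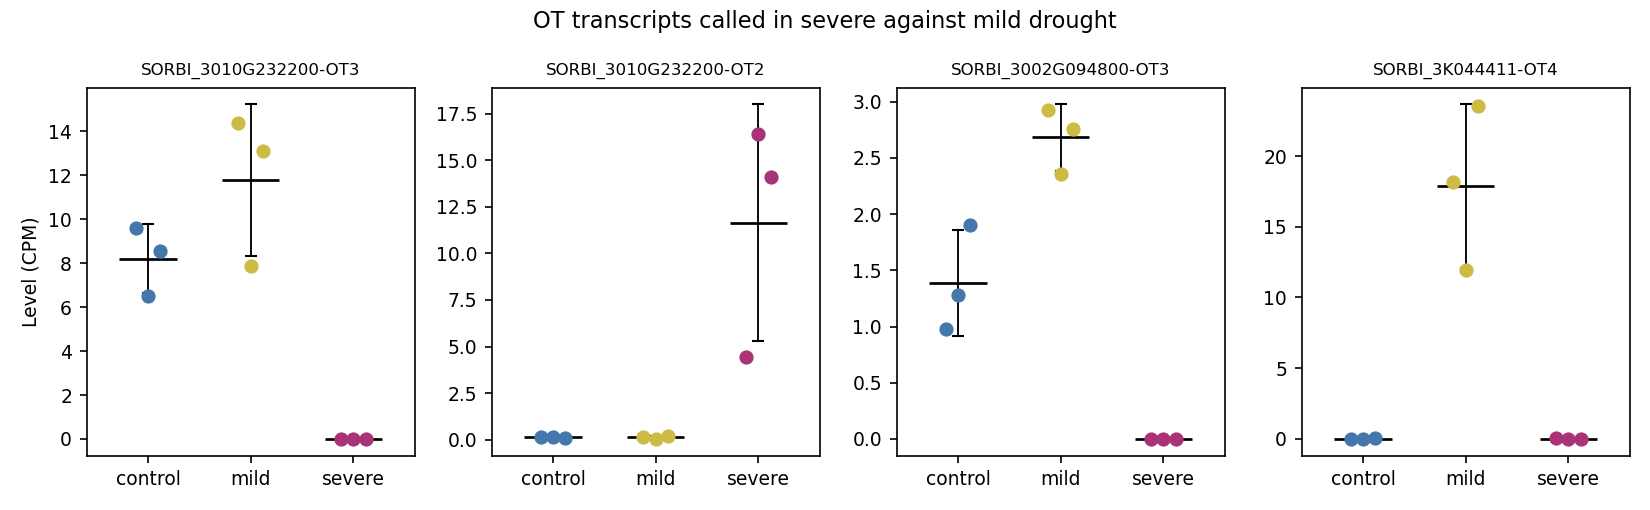
Levels (CPM) of the 4 OT transcripts called in severe against mild drought, with 1 point per library, a horizontal line at the mean and bars of 1 SD (n = 3). SORBI_3010G232200-OT3 and SORBI_3002G094800-OT3 are at 0 in all severe drought libraries, SORBI_3010G232200-OT2 is at 4.42 to 16.4 CPM in severe drought and at most 0.2 CPM elsewhere, and SORBI_3K044411-OT4 is at 11.9 to 23.5 CPM in mild drought and at most 0.0522 CPM elsewhere.

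The transcripts named next were chosen for drought groups that did not overlap and for a small p, and they did not pass. SORBI_3007G116400-OT2 (chromosome 7) had 5.61, 2.84 and 7.59 CPM in severe drought and 21.4, 13.4 and 22.5 CPM in mild drought (log2 -1.83 ± 0.51, edgeR adjusted p = 0.998). Its share of the OT counts of its locus was 13.9% to 40.2% in severe drought and 58.1% to 83.5% in mild drought. SORBI_3007G096600-OT2 (chromosome 7) had 20.3, 18.1 and 13.1 CPM in severe drought and 3.28, 5.31 and 0.48 CPM in mild drought (log2 2.50 ± 0.85, edgeR adjusted p = 0.998), while its gene stayed between 85.3 and 149 CPM in all libraries. SORBI_3005G110547-OT3 (chromosome 5) had 1.48 to 3.96 CPM in severe drought and 0.126 to 0.8 CPM in mild drought. SORBI_3004G291700-OT3 (chromosome 4) lies in the gene of phosphomethylethanolamine N-methyltransferase, an enzyme on the way to choline and so to the osmoprotectant glycine betaine. It had 0, 0.186 and 0 CPM in severe drought and 7.34, 2.08 and 9.28 CPM in mild drought (edgeR adjusted p = 0.998). The gene as a whole had 0.646 CPM in severe drought 1, but 17.0 and 24.8 CPM in severe drought 2 and 3 and 15.4 to 19.5 CPM in mild drought.

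The shares that the OT transcripts of a locus take of its OT counts were tested next, since they do not depend on the level of the locus. For this, 552 OT transcripts of 180 loci had enough counts. In mild drought against control no transcript passed (0% called; 14 at an unadjusted p under 0.05, and 0 in limma), while 1 locus did (0.556%). In severe drought against control 2 transcripts (0.362%) and 1 locus (0.556%) passed, and the same numbers passed in severe against mild drought. In both comparisons the transcripts that passed were OT3 and OT2 of SORBI_3010G232200. An unadjusted p under 0.05 was reached 19 times in each. Some of those tested reach this threshold without any change, so these counts are not read as changed shares. All other loci had no transcript whose share passed.

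At SORBI_3010G232200 the OT3 transcript was exchanged for OT2 in severe drought. OT3 held 66.8%, 45.3% and 59.3% of the OT counts of the locus in the controls, 73.7%, 53.4% and 80% in mild drought and 0% in each severe drought library. OT2 held 0.923%, 1.18% and 0.726% in the controls, 0.808%, 0.313% and 1.22% in mild drought and 61.6%, 69.8% and 67.3% in severe drought. OT1 kept 32.3% to 53.5% in the controls, 18.8% to 46.3% in mild drought and 30.2% to 38.4% in severe drought. Behind the severe drought shares stood 211, 504 and 425 OT counts, and a count of 0 allows shares of OT3 of up to 1.42%, 0.595% and 0.706% there. The share of OT3 passed in severe drought against control (edgeR adjusted p = 2.47e-07) and against mild drought (edgeR adjusted p = 1.08e-07), as did that of OT2 (edgeR adjusted p = 0.0157 and 0.00964). OT2 passed the filter on low counts through severe drought alone. The share of OT3 also passed with each library left out (highest adjusted p 0.000207) and under every other alternative. That of OT2 did not pass without any 1 control (0.222, 0.214 and 0.185 without control 1, 2 and 3), nor against mild drought without mild drought 1 or 2 (0.0721 and 0.158). OT2 and OT3 begin 39 bases apart and end 17 bases apart, so their spans are nearly the same. The sources used here do not say how reads shared by overlapping transcripts were divided, and the part of that step in the exchange was not tested.

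The locus called in mild drought against control was SORBI_3009G183000 (chromosome 9, 53637594 to 53654678; edgeR adjusted p = 0.0307), which has neither a protein name nor a domain. Its OT1 transcript (53637594 to 53643448) had the most counts of any OT transcript, with 193, 189 and 131 CPM in the controls, 268, 349 and 664 CPM in mild drought and 491, 185 and 201 CPM in severe drought. OT2, OT3 and OT4 share a start at 53637977, and OT3 and OT4 also share an end. OT2 had 0.132, 0.0338 and 0.0522 CPM in the controls, 300, 297 and 15.6 CPM in mild drought and 424, 0.0466 and 0.0493 CPM in severe drought. OT3 had 0.0784 to 0.135 CPM in the controls and 41.5 to 51.0 CPM in mild drought, and in severe drought 48.6, 0 and 0.0986 CPM. OT4 had 123, 172 and 92.8 CPM in the controls, 29.1, 4.78 and 23.3 CPM in mild drought and 44.0, 238 and 193 CPM in severe drought. Severe drought 1 thus had the pattern of mild drought, and severe drought 2 and 3 that of the controls. OT2 and OT3 had 8 and 11 counts over the controls. They passed the filter on low counts through mild drought and severe drought 1 alone. Their entry into the test of the locus thus depended on libraries where they were high. In shares, OT4 held 39.0% to 47.7% in the controls, 0.691% to 4.49% in mild drought and 4.37%, 56.2% and 48.9% in severe drought. The call was not kept when any 1 of the 6 libraries was left out (adjusted p = 0.0503 without mild drought 3 to 0.487 without control 1), and in limma the adjusted p was 0.0777. None of the 4 transcripts passed by level in edgeR (adjusted p at least 0.967 in the comparisons with the control).

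**Figure D4:**
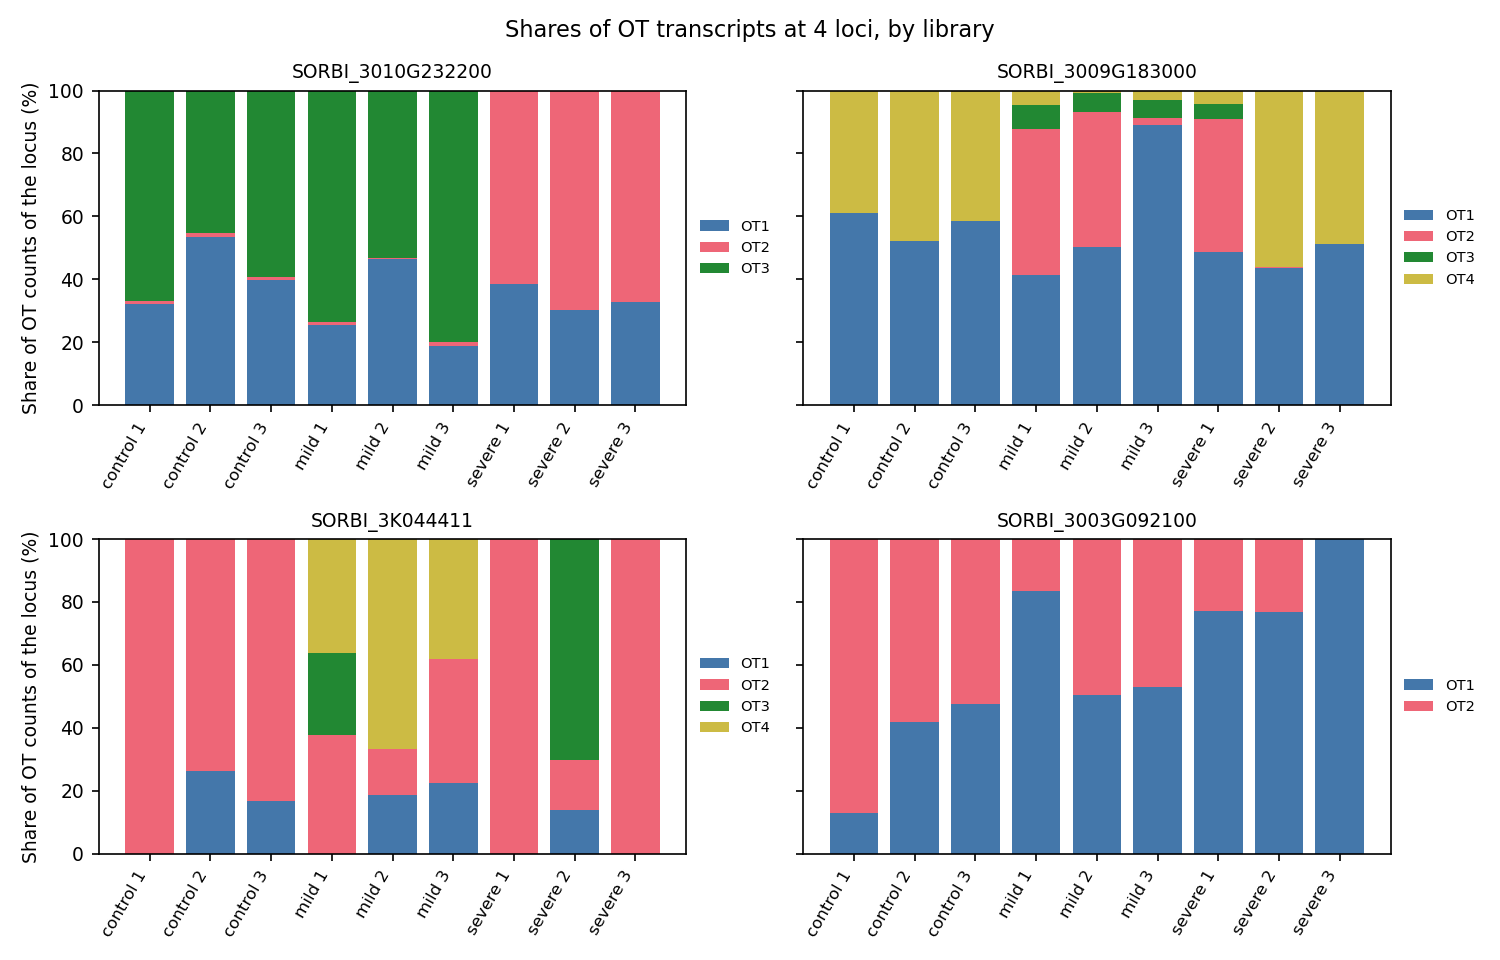
Stacked bars give the share (%) that each OT transcript held of the OT counts of its locus, for 4 loci and the 9 libraries. At SORBI_3010G232200, OT2 stands in place of OT3 in each severe drought library. At SORBI_3009G183000, OT2 and OT3 appear in mild drought and in severe drought 1, at SORBI_3K044411 OT4 appears in mild drought, and at SORBI_3003G092100 the share of OT1 is highest in severe drought 3.

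A leading transcript was taken at each locus as the one with the highest mean share in a group, for loci with at least 20 OT counts in each library compared. The leader differed between mild drought and control at 47 of 179 loci (26.3%), between severe drought and control at 40 of 158 (25.3%) and between severe and mild drought at 49 of 158 (31%). At loci of the other name classes it differed at 13.8%, 16.7% and 13.9%. Few of these exchanges kept the groups apart. The shares of both leaders did not overlap between the groups at 6 loci (3.35%, beside 2.3% in the other classes), 6 loci (3.8%, beside 1.43%) and 7 loci (4.43%, beside 0%). These counts are descriptions with no test.

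Exchanges of the leader were about as common between libraries of the same group as between groups. At the 156 loci with at least 20 OT counts in all 9 libraries, a pair of libraries from different groups differed in its leader at a median of 57 loci (27 pairs, 38 to 64). A pair from the same group differed at a median of 51 loci (9 pairs, 45 to 73). The leader was the same in all 9 libraries at 40 loci (25.6%). It was the same within the controls at 88 loci, within mild drought at 73 and within severe drought at 80.

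Besides SORBI_3010G232200, the exchange with separate groups and the largest shift of share was at SORBI_3003G092100 (chromosome 3, 8013704 to 8018685), of a gene with no protein name. OT1 held 13%, 41.8% and 47.7% of its OT counts in the controls, 83.6%, 50.4% and 53.1% in mild drought and 77.2%, 76.9% and 100% in severe drought, and OT2 held the rest. Each drought library lay above each control, but the shares did not pass the test. SORBI_3K044411 came next, in mild drought against control. There OT4 held 36.2%, 66.7% and 38% of the OT counts in mild drought, against 0.0263% or less in each control. OT2 held 37.7%, 14.6% and 39.6% in mild drought and 100%, 73.7% and 83.2% in the controls. In severe drought OT2 held 99.9%, 15.9% and 100%, the middle library differing from the others. At SORBI_3005G104300 (chromosome 5), OT3 held 75%, 66.2% and 34% in mild drought and 6.85%, 32.5% and 8.28% in the controls. OT2 there held 0%, 27.4% and 33% in mild drought and 66.4%, 43.9% and 46.2% in the controls.

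At SORBI_3005G208275 (chromosome 5), OT1 held 48.8%, 58.9% and 69.7% in mild drought and 32.1%, 2.88% and 27% in the controls, and OT5 at most 1.11% in mild drought and 14.3% to 59.2% in the controls. SORBI_3006G029550 (chromosome 6), whose description lists a MULE transposase domain, had OT2 at 45.2%, 44.3% and 69.8% in mild drought and 21.9%, 11.6% and 24.1% in the controls, with OT1 as the rest. The level of its OT2 was uneven within groups, at 2.84, 2.08 and 74.8 CPM in mild drought. At SORBI_3002G146900 (chromosome 2), OT2 held 14.3%, 13.9% and 15.1% in severe drought and 38.4%, 37.1% and 81.9% in mild drought, and OT3 50.6%, 40.6% and 56.6% in severe drought and 5.8%, 29.9% and 10.6% in mild drought. At SORBI_3006G079450 (chromosome 6), OT2 held 73.3%, 67.2% and 100% in severe drought and 58.5%, 55.8% and 0% in mild drought, but it also varied from 5.26% to 93.5% among the controls.

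The OT part of a gene count was also set against the rest of that count, to see whether OT transcripts move apart from their gene. At none of 483 loci with enough counts did the OT share pass in edgeR in any of the 3 comparisons (0% called each), and limma also called 0. At an unadjusted p under 0.05 there were 28 of the 483 loci in mild drought against control, 34 in severe drought against control and 32 in severe against mild drought. A part of the tested loci reaches this threshold without any change. The smallest p belonged to SORBI_3001G319400 (chromosome 1), which has no protein name. OT transcripts held 65.9%, 39% and 46.9% of its count in the controls, 34%, 37.7% and 25.8% in mild drought and 12.4%, 0% and 3.69% in severe drought. The severe drought libraries lay below all others (edgeR adjusted p = 0.292 against the controls). OT transcripts there had 1.43, 0 and 1.04 CPM in severe drought and 12.8, 6.93 and 8.18 CPM in the controls, while the rest of the gene had 9.86, 16.7 and 25.3 CPM in severe drought and 6.09, 9.50 and 8.93 CPM in the controls.

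SORBI_3010G028501 (chromosome 10), described as G-type lectin S-receptor-like serine/threonine-protein kinase B120, belongs to a large plant family of membrane receptors. OT transcripts held 13.3%, 17.8% and 26.8% of its count in the controls, 43%, 50.7% and 73.9% in mild drought and 56.6%, 54.1% and 48.9% in severe drought. All drought libraries lay above all controls (edgeR adjusted p = 0.457 in mild and 0.543 in severe drought). The OT part had 7.16 to 10.97 CPM in mild drought and 7.97 to 20.3 CPM in severe drought, beside 5.85 to 8.79 CPM in the controls. The rest of the gene had 14.5, 6.95 and 3.08 CPM in mild drought, 15.6, 6.76 and 10.01 CPM in severe drought and 38.1, 40.5 and 20.1 CPM in the controls, so that the remainder and not the OT part had the larger difference.

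At SORBI_3006G268600 (chromosome 6) the OT share was 10%, 48.8% and 70.6% in severe drought and 2.44%, 7.99% and 5.5% in the controls (edgeR adjusted p = 0.543). The lowest severe drought value was again that of severe drought 1. At SORBI_3001G538100, the RFWD3 gene, it was 5.99%, 7.26% and 9.71% in mild drought and 43.9%, 60.4% and 17.1% in the controls (edgeR adjusted p = 0.422). SORBI_3002G207601, a WAT1-related protein of a family of membrane transporters, had an OT share of 0%, 2.04% and 1.75% in severe drought and 24.2%, 16.8% and 9.09% in the controls (edgeR adjusted p = 0.543). SORBI_3003G121800, described as alpha-tocopherol transfer protein, a carrier of vitamin E in animals, had OT counts of 0 in all severe drought libraries. Its OT share was 0.39% to 11.8% in mild drought (edgeR adjusted p = 0.437 for severe against mild drought). In the controls it was 0%, 2.23% and 6.09%, so control 1 was at 0 as well (edgeR adjusted p = 0.543 for severe drought against control). SORBI_3004G040350 and SORBI_3006G261900 had higher OT shares in mild drought, at 3.94% to 4.78% and 19.3% to 48.1%, against 1.43% to 1.89% and 1.83% to 11.3% in the controls (edgeR adjusted p = 0.422 each). Loci of the smallest p also included SORBI_3008G137400, with OT counts in the controls (0.689, 1.55 and 2.4 CPM) and in severe drought 1 (2.04 CPM) alone. SORBI_3001G002100 had an OT share of 4.22%, 5.88% and 10.6% in severe drought, 0% in mild drought and 0%, 0% and 3.46% in the controls. The OT share was 6.91%, 4.1% and 3.29% in mild drought and 14.6%, 36.5% and 22.1% in the controls at SORBI_3009G201300. In severe against mild drought, SORBI_3006G066650 had 83.7%, 47.4% and 34.7% against 92.1%, 94.2% and 63.6%, and SORBI_3008G037400 had 86.3%, 91.7% and 87.8% against 0%, 46% and 0%.

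**Figure D5:**
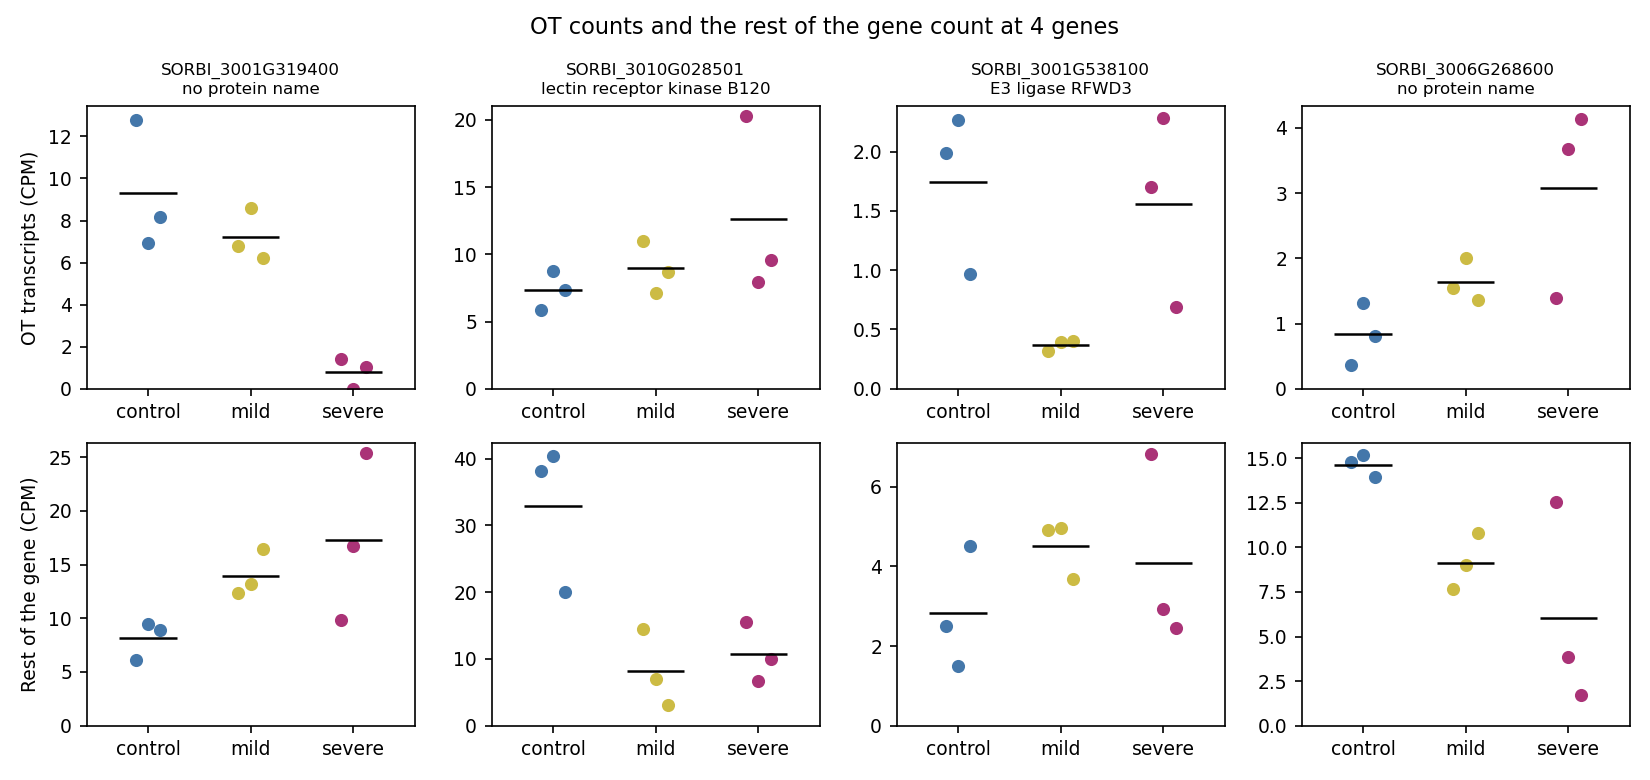
Levels (CPM) of all OT transcripts of a gene together (top) and of the rest of the gene count (bottom) at 4 genes, with 1 point per library and a line at the mean of 3. At SORBI_3001G319400 the OT part is lowest in severe drought, and at the receptor kinase gene SORBI_3010G028501 the rest of the gene is lower in both drought groups (3.08 to 15.6 CPM) than in the controls (20.1 to 40.5 CPM).

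Host genes were sorted by the words of their protein names into lists for drought and for general functions. Of the 20947 genes with a protein name, 154 (0.735%) were hosts. That share amounts to less than 1 gene in each list named here with no host, so their counts of 0 lie near the background. None of the 119 genes of abscisic acid, the main drought hormone, had an OT transcript. Likewise none did among 16 dehydrin and late embryogenesis abundant genes, 6 of proline metabolism, 99 of water and sugar transport, 84 of photosynthesis and 36 of the clock and light sensing. The heat shock list had 1 host gene of 151, ribosomal proteins 2 of 362, RNA processing 1 of 299, transcription factors 2 of 1344 and ubiquitin 5 of 901. Protein kinases had 18 of 1536 (1.17%), with 23 OT transcripts of which 20 were tested. In lists added after the names had been seen, 8 of 334 disease resistance genes (2.4%) and 7 of 115 transposon genes (6.09%) were hosts. None of the OT transcripts of any list was called in edgeR in any comparison. The 20 tested kinase OT transcripts had 13 log2 differences above 0 and 7 below in mild drought (median 0.22), the same numbers in severe drought against control (median 0.69), and 11 above and 9 below in severe against mild drought (median 0.44).

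Single members of these lists show what the named host genes are. SORBI_3004G320800-OT1 (chromosome 4), of a DnaJ protein, a helper of the heat shock 70 chaperones, had 17.5, 17.2 and 26.2 CPM in mild drought and 24.1, 22.0 and 22.6 CPM in severe drought, beside 11.7, 13.3 and 14.9 CPM in the controls. Its gene as a whole was also higher, at 82.4 to 112 CPM in mild and 87.9 to 112 CPM in severe drought, beside 60.7 to 71.3 CPM in the controls, and the OT transcript did not pass (log2 0.78 ± 0.34 in severe drought, edgeR adjusted p = 0.997). The count of the gene includes that of the OT transcript. SORBI_3009G146100-OT1 (chromosome 9), of splicing factor 3B subunit 4, a part of the spliceosome, had 6.49, 5.96 and 5.72 CPM in mild drought and 17.8, 10.6 and 14.5 CPM in the controls (log2 -1.24 ± 0.45, edgeR adjusted p = 1.00). In severe drought it had 14.9, 5.59 and 11.4 CPM, overlapping both.

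SORBI_3003G429650 (chromosome 3), described as casein kinase 1-like protein HD16, which in rice delays flowering, had a pair of OT transcripts that exchanged places across groups. OT3 held 84.5%, 85.3% and 90.7% of its OT counts in the controls, 37.6%, 94.6% and 0% in mild drought and 16.6%, 94.3% and 23% in severe drought. OT2 took 62.4% and 99.8% in mild drought 1 and 3, and 82.3% and 74.9% in severe drought 1 and 3. Thus 4 drought libraries differed from the controls, and mild drought 2 and severe drought 2 resembled them. At SORBI_3003G199001 (chromosome 3), of the homeobox-leucine zipper protein ROC2, a member of a family active in the rice epidermis, OT1 was counted in each library (4.78 to 14.1 CPM). OT2 was counted in control 1 and severe drought 3 alone, and OT3 in 4 libraries of all 3 groups. Of the ribosomal protein L36a gene SORBI_3007G110500, both OT transcripts and the gene itself had no count in severe drought 1. In the other libraries OT1 had 0.809 to 9.94 CPM and OT2 0 to 2.75 CPM. SORBI_3006G019600-OT1, of ribosomal protein L7a-1, had 0.745 to 4.63 CPM over all libraries. In the ubiquitin list, which serves protein breakdown, SORBI_3004G118300-OT1, of an F-box protein, had 4.58 to 10.2 CPM. SORBI_3006G190200-OT1, of ubiquitin carboxyl-terminal hydrolase 3, had 0 CPM in severe drought 1 and 1.01 to 5.06 CPM in the others. The main OT transcript of the lectin receptor kinase gene, SORBI_3010G028501-OT2, had 4.36 to 8.32 CPM in mild drought, 4.52 to 13.5 CPM in severe drought and 3.28 to 6.66 CPM in the controls.

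The spread between libraries of a group was wide. The median biological coefficient of variation of OT transcripts with a mean of at least 1 CPM was 0.673, against 0.638 for AS, 0.564 for IT and 0.648 for LINC transcripts. Of the 533 OT transcripts that reached 5 CPM in a library, 100 (18.8%) had no count in another library of the same group, against 14.5% of AS, 0% of IT and 14.9% of LINC transcripts. At 148 loci with several OT transcripts, the median coefficient of variation within a group was 0.437 for a transcript, 0.3 for the OT sum of its locus and 0.258 for the whole gene. Counts of 0 beside high counts in the same group fell on single transcripts of genes that were counted in each library, such as SORBI_3007G028400-OT1 and SORBI_3003G256600-OT1, as well as on genes missing from severe drought 1.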

How the data were processed

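The authors deposited read counts per gene and per lncRNA transcript, and FPKM values per gene and per lncRNA transcript, with 1 column per library per the file headers. The submitters' processing notes name StringTie 1.3.3b, STAR and HISAT2 2.0.4. Their roles, the genome build and the way reads shared by overlapping transcripts were divided are not given in the sources used here. Groups and numbers were taken from the labels.

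Effective library sizes were set by TMM on the genes of the same libraries. LncRNA transcripts were filtered with filterByExpr (minimum count 10, minimum total 15), and their levels were compared by edgeR 4.0.16 (glmQLFit and glmQLFTest, R 4.3.3) in a single fit of the 9 libraries without covariates. Shares were tested with diffSpliceDGE of edgeR, within the OT counts of a locus, and for the OT sum against the gene count less all its lncRNA transcripts. Adjusted p-values are Benjamini-Hochberg over all features of a test, with calls under 0.05. Folds against 0 counts used a floor of 3 counts over a group. Intervals and floors cover counting error only. DESeq2 1.42.0, limma 3.58.1 (voom and diffSplice), other scalings, no filter, a block and leaving out libraries were alternatives. The level and share tests were also run on simulated counts with known changes. For the share test the simulated spread was below the median spread of OT transcripts. Its reliability on these data was therefore not judged from that run.

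Members, lists and tests were chosen with earlier results of these data known. Named transcripts were the 8 with the most counts, those called or with the smallest p and groups that did not overlap (up to 4 in a direction), loci with called shares or separate leaders (up to 8), up to 6 loci by OT share of the gene in a comparison, and up to 3 of each host list. Sequences were not used here, nor was the supplied table of gene symbols.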

Additional observations from a re-analysis of the deposited data

How the results depend on the processing

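The number of OT transcripts called by level depended on the tool and the filter. DESeq2 called 7 in mild drought against control, 13 in severe drought against control and 14 in severe against mild drought (0.789%, 1.47% and 1.58%), beside 0.247%, 0.866% and 0.589% of all lncRNA transcripts. With no filter on low counts edgeR called 15 (1.46%), 21 (2.05%) and 18 (1.76%), beside 0.168%, 0.302% and 0.243% of all. Without the filter, all lncRNA transcripts include a larger part with few counts than OT transcripts do. With the replicate number as a block, edgeR called 0 in severe drought against control and 0 in severe against mild drought. Same-numbered libraries did not deviate together (correlations of -0.0998 to 0.112), so the numbers were not taken to pair them. The counts from other scalings were within 1.5 times of those reported. When 1 library was left out, edgeR called 0 OT transcripts in mild drought against control, 0 to 3 in severe drought against control (3 without severe drought 1) and 0 to 5 in severe against mild drought. Calls over all lncRNA transcripts were not counted in these fits, so whether other classes changed likewise is not known. Transcripts with a changed share numbered 0 to 1, 1 to 5 and 1 to 8 (8 without severe drought 1), and loci with a changed OT share of the gene 0 to 2, 0 to 4 (4 without severe drought 1) and 0 to 1. The leading transcript differed at 40 to 58, 40 to 47 and 44 to 52 loci. The log2 difference of the summed OT level, near 0 throughout, lay between -0.0804 and 0.0894 in mild drought against control, between -0.0876 and 0.0635 in severe drought against control and between -0.0981 and 0.0840 in severe against mild drought when 1 library was left out. Taken as a share of all lncRNA counts it was 0.34 in mild drought against control, -0.35 in severe drought against control and -0.69 in severe against mild drought (exact permutation p = 0.3, 0.3 and 0.1). The cause of these differences was not tested, except that fewer libraries leave fewer degrees of freedom. Under the block the shares of OT3 and OT2 of SORBI_3010G232200 still passed, while the level of OT3 did not (adjusted p = 0.22 against the controls and 0.184 against mild drought), nor did the locus SORBI_3009G183000 (0.149).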
